A study of Mus musculus with 6 samples.

Results

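The 9 genes described here encode chains of laminin, the sheet-forming glycoprotein of basement membranes: the alpha chain genes Lama2, Lama3, Lama4 and Lama5, the beta chain genes Lamb1, Lamb2 and Lamb3, and the gamma chain genes Lamc1 and Lamc3. Their probes were taken as all non-control array probes whose RefSeq accession, without its version, belongs to 1 of these genes. Of the 9 genes, 8 had a matched probe, with 12 probes in all among 41174 non-control probes. For 6 genes at least 1 probe stood well above background throughout a group, on each of its 3 arrays, which gave 9 tested laminin probes among 26432 tested probes. Lamb3 and Lamc3 had dim probes and were not tested, and Lamc1 had no matched probe and was not analysed here.

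The data were 6 one-colour Agilent arrays of total RNA from bulk cultures of primary astrocytes of C57BL/6 mouse cerebral cortex, bought as a culture from fetuses at embryonic day 18. The 3 miR-29 samples were transfected with precursors of human miR-29a, miR-29b and miR-29c, mixed in molar parts of 1, 2 and 1, and the 3 control samples with the precursor named Negative Control1. Per the labels, both used 80 nM (given as each, without saying whether per precursor or per mixture), the lipid reagent RNAiMax and cells 3 weeks after plating, with harvest after 48 h and a transfection efficiency above 90%. RNA was extracted in triplicate, and nothing in the labels says that the samples came from separate cultures. The p-values therefore reflect the spread among these extracts, which may be technical, and no more. The series title calls miR-29 a potential determinant of longevity, and the comparison asks which astrocyte transcripts differ after it is raised.

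Laminins are heterotrimers: an alpha, a beta and a gamma chain wind around each other into a cross-shaped molecule. The alpha chain carries the globular domains that bind integrins and dystroglycan on the cell surface, and the short arms join into a network that nidogens and heparan sulphate proteoglycans tie to type IV collagen. In brain, laminins lie in the basement membranes of blood vessels and of the pial surface, where astrocyte endfeet attach and anchor their water channels through dystroglycan; astrocytes are a known source of the Lama2 chain. MicroRNAs of the miR-29 family are known to lower many extracellular matrix transcripts, which they recognise mainly through the seed near their 5' end.

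The mature mouse members of the family are shown because all 3 share the seed that selects their targets. The sequences are from RefSeq (build GRCm38.p6), 5' to 3', with the seed, bases 2 to 8, in capitals.
mmu-miR-29a-3p: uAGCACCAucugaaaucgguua
mmu-miR-29b-3p: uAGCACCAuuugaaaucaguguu
mmu-miR-29c-3p: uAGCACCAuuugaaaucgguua
The miR-29a sequence lies at chr6:31062673-31062694 on the minus strand and that of miR-29c at chr1:195037600-195037621 on the plus strand. The miR-29b sequence is encoded at 2 loci, chr6:31063025-31063047 on the minus strand and chr1:195037091-195037113 on the plus strand. The 3 sequences differ only outside the seed over the 22 bases compared. Counted from the 5' end, miR-29c differs from miR-29a by C10U alone, and miR-29b differs from miR-29a by C10U, G18A, U21G and A22U.

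Values below are log2 of the processed signal relative to the 75th percentile of the array, given in the order of replicates 1, 2 and 3. A fold change is miR-29 minus control on this scale, with the standard error (SE) and the Benjamini-Hochberg adjusted p of limma, fitted over all 26432 tested probes with a threshold of 0.05. Across arrays, 62.47% to 67.3% of spots were well above background and 0 were saturated. Correlations between arrays were 0.9943 to 0.9979 within groups and 0.9743 to 0.9841 between groups. The 3 miR-29 arrays and control replicate 1 shared slide 1, and control replicates 2 and 3 were on slide 2, so the value within slide 1, which rests on 1 control array, stands beside the result of each laminin probe and pair. In bulk RNA, fewer cells of a type and less RNA per cell cannot be told apart.

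Most measured laminin transcripts were lower after miR-29. Of the 9 tested laminin probes 7 fell, 0 rose and 2 did not pass (limma; at an unadjusted p under 0.05 the counts were again 7 and 0). Over all tested probes 22.7% were called lower and 35.3% higher. The same 7 probes had all 3 miR-29 arrays below all 3 control arrays, a pattern seen in 26.3% of all tested probes. Taken by the brightest probe of each gene, 5 of 6 genes fell, where 22.8% of all genes and transcripts did. The median fold change was -0.43 over the 9 laminin probes and 0.07 over all tested probes. With arrays scaled to spiked-in control RNAs instead, all probes shifted down to a median of -0.18, the share of calls that were higher went from 60.9% to 28%, and the laminin median was -0.68. Of all probes 38.4% were called lower at that scaling, and 8 of the 9 laminin probes were.

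**Figure D1:**
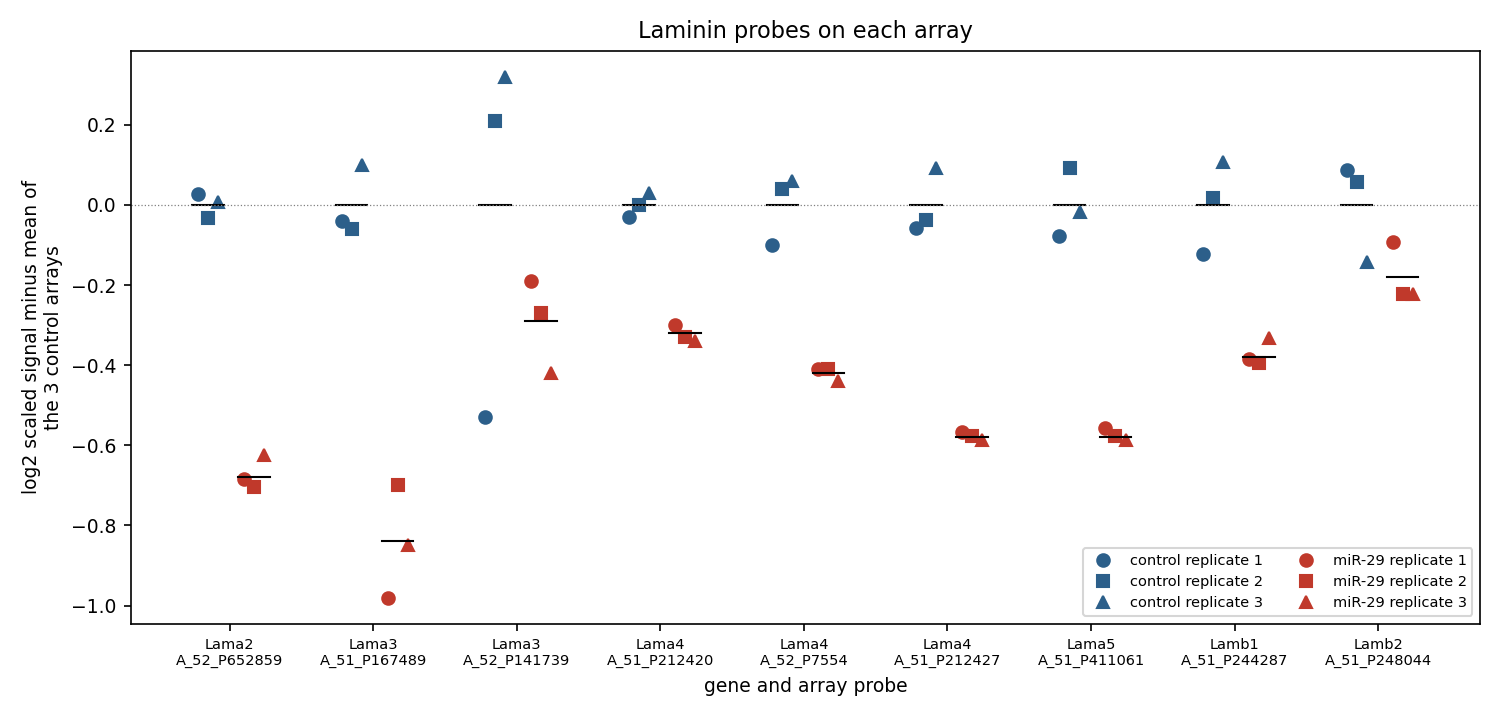
Each point is 1 array: the vertical axis is the log2 scaled signal of a laminin probe minus the mean of the 3 control arrays, with control arrays in blue, miR-29 arrays in red and group means as short lines. The miR-29 points lie below every control point for 7 of the 9 probes, and overlap with them for Lamb2 and for the Lama3 probe A_52_P141739.

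Among the alpha chains, Lama2 encodes the chain of merosin, the laminin of muscle and of astrocyte and vascular basement membranes, whose loss causes a congenital muscular dystrophy with changes in brain white matter. Its single probe A_52_P652859 read -0.58, -0.60 and -0.52 after miR-29, and 0.13, 0.07 and 0.11 in the controls. All 3 miR-29 arrays were low and lay far from the controls relative to the spread within either group. Lama2 fell to 62.7% of control, and its log2 fold change was -0.67 (n = 3 and 3, SE 0.049, adjusted p = 0.000152). It was -0.70 within slide 1 (adjusted p = 0.00146 in a fit with slide as a block) and -0.92 with spike-in scaling, so it moved further than the shift of all probes under either scaling.

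Lama5, the alpha chain of the most widespread adult laminins and one that endothelial and epithelial basement membranes hold, was well above background on every array. Probe A_51_P411061 read 2.95, 2.93 and 2.92 after miR-29, against 3.43, 3.60 and 3.49 in the controls. The miR-29 arrays were almost equal, and the gap between the groups was wider than the spread of either. The level fell to 67.2% of control, a log2 change of -0.57 (SE 0.060, adjusted p = 0.000523). The fold change within slide 1 was -0.49, and the fit that blocks on the slide gave an adjusted p of 0.0043.

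Lama4, the alpha chain of laminins around small vessels and in the perineurium, had 3 probes, and all 3 fell. The brightest, A_51_P212420, read 2.60, 2.57 and 2.56 after miR-29, and 2.87, 2.90 and 2.93 in the controls. The second, A_52_P7554, read 2.26, 2.26 and 2.23 against 2.57, 2.71 and 2.73. The third, A_51_P212427, read 0.98, 0.97 and 0.96 against 1.49, 1.51 and 1.64. In each case the 3 miR-29 arrays lay close together and below the controls, but the fold change differed in size between probes. In the same order the fold changes were -0.33 (SE 0.047, adjusted p = 0.00176), -0.43 (SE 0.059, adjusted p = 0.00152) and -0.58 (SE 0.056, adjusted p = 0.000404), which leave 79.8%, 74.4% and 67% of control. Within slide 1 they were -0.29, -0.33 and -0.52. The mean of the 3 probes gave -0.44 (SE 0.050, adjusted p = 0.000773). When limma tested for a change beyond 1.2-fold, only A_51_P212427 passed, and the others had adjusted p = 0.289 and adjusted p = 0.0588.

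Lama3, the alpha chain of the epithelial laminin that anchors skin, gave dim signals, and its 2 probes did not give the same result. Probe A_51_P167489 read -4.26, -3.98 and -4.13 after miR-29, and -3.32, -3.34 and -3.18 in the controls. Its processed signals were 26.3, 36.8 and 34.3 against 50.7, 49.3 and 73.4, where the lowest signal called well above background was 3.46 to 7.96 depending on the array. This probe fell to 55.7% of control, a log2 change of -0.84 (SE 0.088, adjusted p = 0.000521), and by 0.80 within slide 1. With normexp background correction, which adds an offset and shrinks dim signals, its fold change was -0.35 (adjusted p = 0.0015).

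The second Lama3 probe, A_52_P141739, read -4.25, -4.33 and -4.48 after miR-29, and -4.59, -3.85 and -3.74 in the controls. Control replicate 1 was the lowest of all 6 arrays, so the groups overlapped. The fold change was -0.29 (SE 0.224) and did not pass (adjusted p = 0.297). Without control replicate 1 it was -0.56 (adjusted p = 0.00308), and within slide 1, where control replicate 1 is the single control, it was 0.23 (adjusted p = 0.126 in the fit with slide as a block). The mean of both Lama3 probes was -0.57 (SE 0.131, adjusted p = 0.012).

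**Figure D2:**
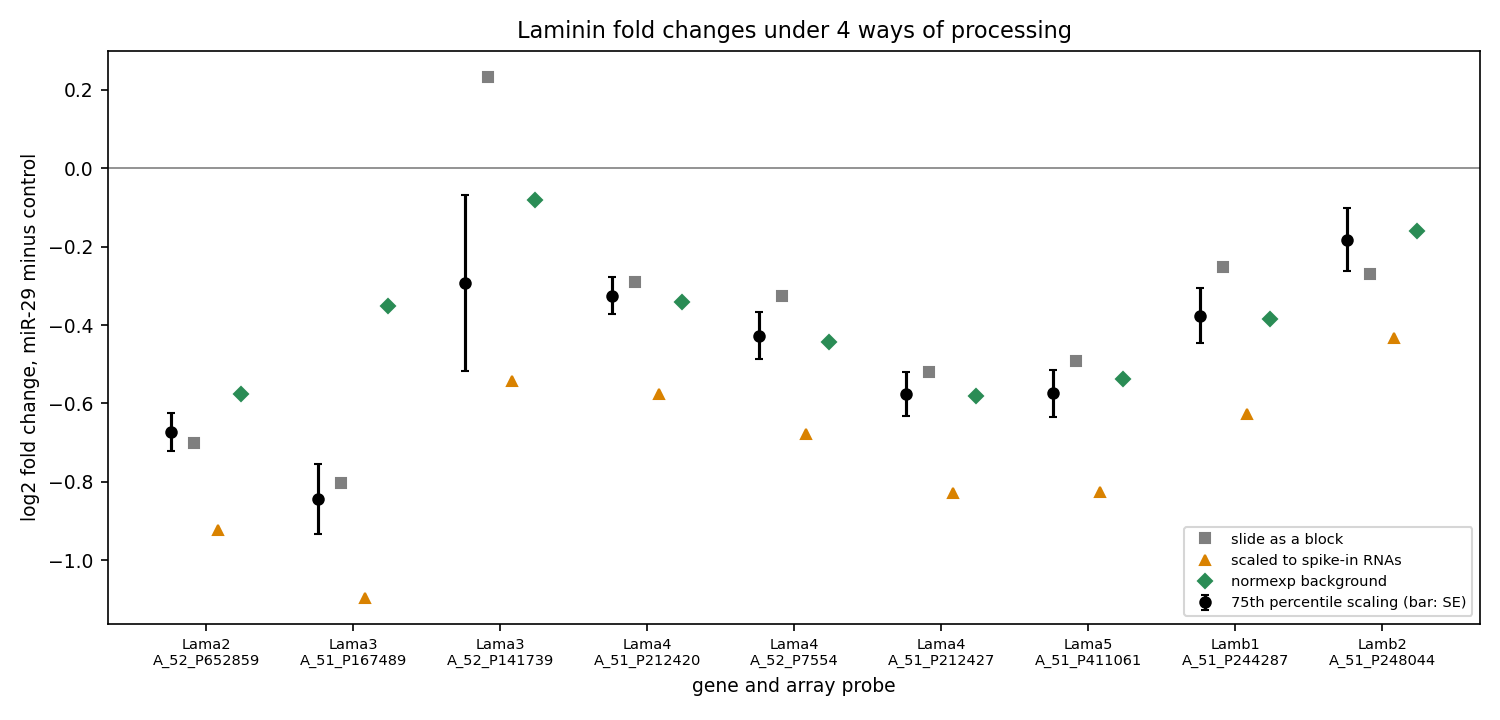
The vertical axis is the log2 fold change, miR-29 minus control, of each tested laminin probe under 4 ways of processing; bars on the black points are the SE of the main fit. Every value is below 0 except that of the Lama3 probe A_52_P141739 with the slide as a block, 0.23, and the spike-in scaled values lie lowest for each probe.

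Among the beta chains, Lamb1 encodes the chain of the earliest embryonic laminins, and its loss disturbs the pial basement membrane and cortical layering. Probe A_51_P244287 read 2.58, 2.57 and 2.63 after miR-29, and 2.84, 2.98 and 3.07 in the controls. The control arrays spread more than the miR-29 arrays, and control replicate 1, the lowest control, still lay above all 3. Lamb1 fell to 77% of control, a log2 change of -0.38 (SE 0.071, adjusted p = 0.00512). The fold change within slide 1 was -0.25 (adjusted p = 0.0312 in the fit with slide as a block), and the test for a change beyond 1.2-fold gave an adjusted p of 0.214.

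Lamb2 encodes the beta chain of neuromuscular, glomerular and mature vascular laminins. Probe A_51_P248044 read 3.16, 3.03 and 3.03 after miR-29, and 3.34, 3.31 and 3.11 in the controls. Control replicate 3 lay below miR-29 replicate 1, so the groups overlapped. The level was 88.1% of control, a fold change of -0.18 (SE 0.080), and did not pass (adjusted p = 0.0954). It was -0.27 within slide 1 (adjusted p = 0.0883 in the fit with slide as a block). The fold change was -0.25 without control replicate 3 (adjusted p = 0.0341) and -0.43 with spike-in scaling (adjusted p = 0.00187). Of 19 alternative settings, Lamb2 passed in 6 and kept a negative fold change in all 19, between -0.43 and -0.14.

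Lamb3, the beta chain that pairs with Lama3 in the epithelial laminin, was called well above background on 0 arrays. Its probe A_51_P223656 had processed signals of 6.09, 5.94 and 3.9 after miR-29, and 3.17, 2.4 and 6.52 in the controls, with overlapping groups. Lamc3 encodes a gamma chain found in the retina and at the pial surface, and both of its probes were dim. Probe A_52_P463935 was well above background on 2 miR-29 arrays and 1 control array, with signals of 9.6, 13.3 and 14.1 against 9.63, 9.29 and 12.7. Probe A_52_P286561 was above background on 0 arrays, with signals between 2.26 and 2.73 in all 6. No fold change is given for these 3 probes, since neither group had a measured level on all of its arrays.

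**Figure D3:**
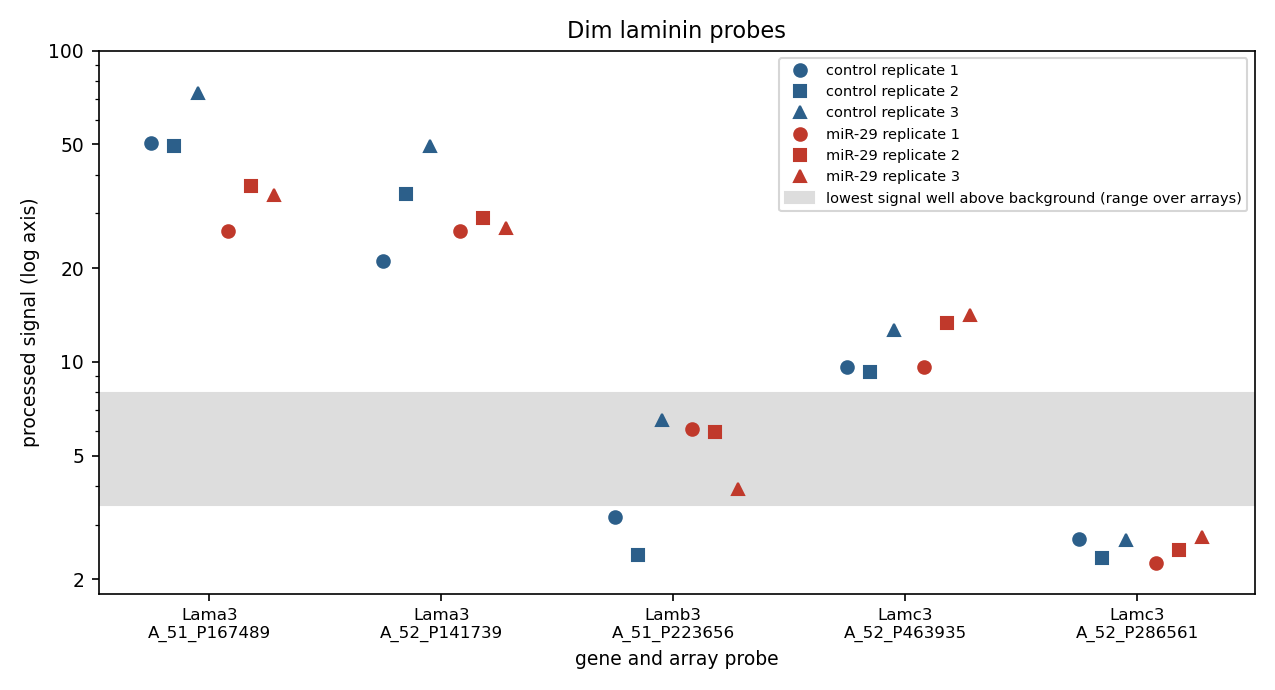
The vertical axis is the processed signal, on a log axis, of 5 dim laminin probes on each array, and the grey band spans the lowest signal called well above background, 3.46 to 7.96 across arrays. The Lama3 probes lie above the band on every array, whereas the Lamb3 probe and A_52_P286561 of Lamc3 lie within or below it; A_52_P463935 of Lamc3 lies above it, although 3 of the 6 arrays called it well above background.

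Lama1, the alpha chain of embryonic laminin, lies outside the set of 9 and was chosen for mention after its values were seen; its probe was above background on 0 arrays.

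Whether the chains fell by unequal amounts was asked within arrays, since the difference between 2 probes on 1 array does not depend on how the array is scaled. The brightest probes of the 6 genes form 15 pairs, each compared between groups with a two-sided exact permutation test. With 3 arrays against 3 the smallest p this test can give is 0.1, so no pair can pass 0.05. In 9 of the 15 pairs the 2 groups did not overlap (exact p = 0.1 for each, 0.167 adjusted over the 15). Over all pairs of genes on the array this held for 64.3%, so the laminin count is near the background and is no result about these chains. Lama2 changed by -0.35 relative to Lama4 on the log2 scale, with within-group SDs of 0.060 after miR-29, and 0.054 in the controls. It was -0.41 within slide 1. Lama2 changed by -0.30 relative to Lamb1 and by -0.49 relative to Lamb2, and within slide 1 by -0.45 and -0.43. Lama5 changed by -0.20 relative to Lamb1 and by -0.39 relative to Lamb2, and within slide 1 by -0.24 and -0.22. Lama4 changed by 0.25 relative to Lama5, and by 0.20 within slide 1. The pairs with Lama4 rest on its brightest probe, A_51_P212420, with a fold change of -0.33. Its probe A_51_P212427 gave -0.58, close to the -0.57 of Lama5, so these changes depend on the Lama4 probe used.

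The 3 pairs of Lama3 with Lama4, Lamb1 and Lamb2 also did not overlap, at -0.52, -0.47 and -0.66, and within slide 1 at -0.51, -0.55 and -0.53. With normexp they were -0.01, 0.03 and -0.19, so the larger fall of the dim Lama3 probe depended on the background correction. Lama2 and Lama5 were not separated: the change between them was -0.10, with overlapping groups (exact p = 0.3; -0.21 within slide 1). Neither were Lama4 and Lamb1, at 0.05 (exact p = 0.4; -0.04 within slide 1), nor Lamb1 and Lamb2, at -0.19 (exact p = 0.3; 0.02 within slide 1). Within slide 1, 13 of the 15 pairs kept their sign, and with normexp 12 did.

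**Figure D4:**
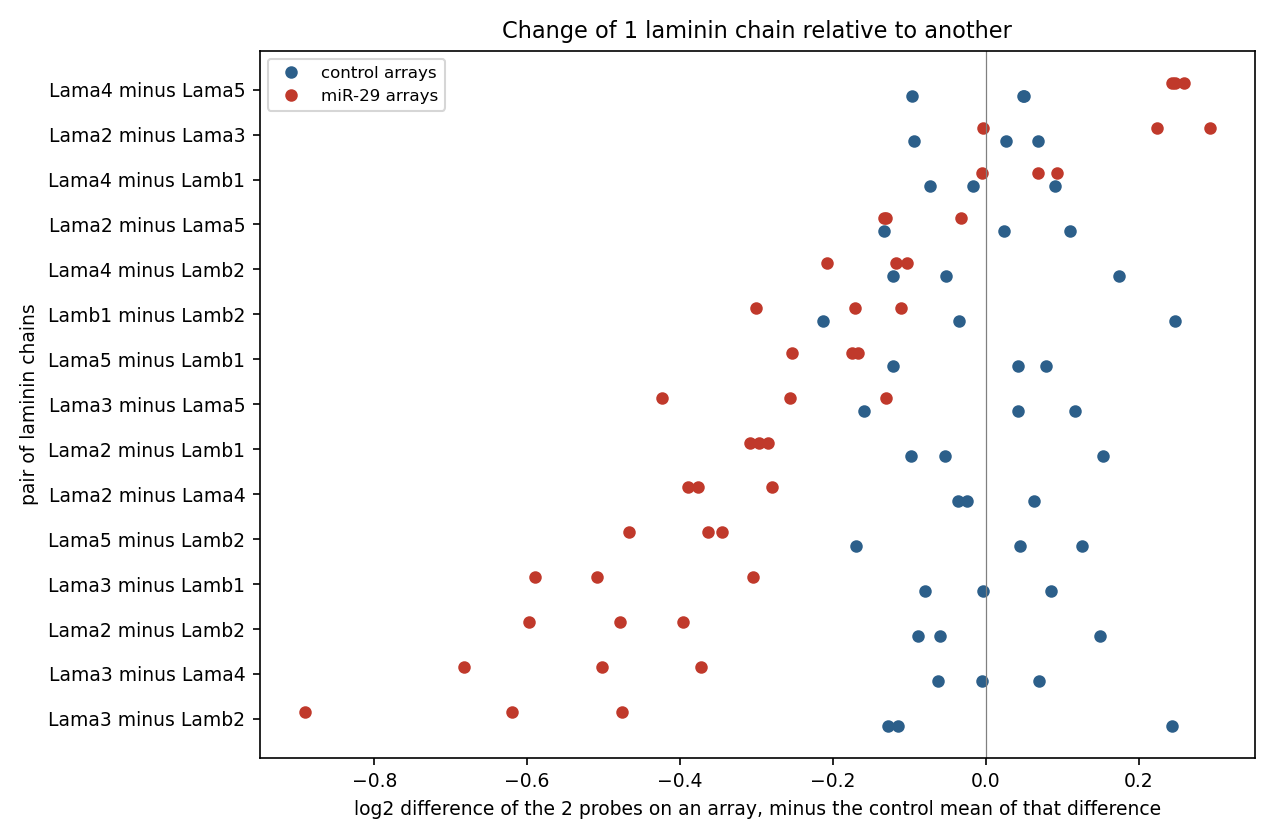
Each row is a pair of laminin chains, and each point is 1 array: the log2 difference of the 2 probes on that array minus the control mean of that difference. Red miR-29 points lie entirely to 1 side of the blue control points in 9 of the 15 pairs, and the pair of Lama3 with Lamb2, at -0.66, lies farthest to the left.

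Probes of the same gene were compared in the same way, with 4 such pairs and the same smallest exact p of 0.1. In all 4 the groups did not overlap (exact p = 0.1, 0.1 adjusted over the 4), as in 47.8% of all pairs of tested probes that share a gene on the array. The Lama4 probe A_51_P212427 changed by -0.25 relative to A_51_P212420 and by -0.15 relative to A_52_P7554, and A_52_P7554 changed by -0.10 relative to A_51_P212420. Within slide 1 these were -0.23, -0.19 and -0.04. The Lama3 probe A_51_P167489 changed by -0.55 relative to A_52_P141739, and by -1.04 within slide 1. Differences between probes of 1 gene, 0.10 to 0.55 in size, were thus within the range of those between chains, 0.05 to 0.66.

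Promoters from RefSeq are shown for a selection of the chains that fell, Lama5, Lamb1 and Lama2, beside Lamb2, which did not pass. Those of Lama3 and Lama4, which also fell by their brightest probes, are not shown. Each line gives the 250 bases before the start of the gene, 5' to 3' on the strand of the gene in build GRCm38.p6, with capitals marking GGGCGG or its reverse complement CCGCCC, the core of the GC box that Sp1-type factors bind.
Lama5: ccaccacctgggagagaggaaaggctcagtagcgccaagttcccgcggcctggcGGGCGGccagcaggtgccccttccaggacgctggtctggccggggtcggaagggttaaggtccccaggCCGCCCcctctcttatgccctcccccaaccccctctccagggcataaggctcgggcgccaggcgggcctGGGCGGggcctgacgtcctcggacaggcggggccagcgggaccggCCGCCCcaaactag
Lamb1: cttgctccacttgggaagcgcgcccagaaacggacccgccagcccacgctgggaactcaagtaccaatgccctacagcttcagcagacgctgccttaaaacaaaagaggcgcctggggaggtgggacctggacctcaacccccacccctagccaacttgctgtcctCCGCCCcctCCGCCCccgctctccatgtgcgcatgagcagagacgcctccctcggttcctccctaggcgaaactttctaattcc
Lama2: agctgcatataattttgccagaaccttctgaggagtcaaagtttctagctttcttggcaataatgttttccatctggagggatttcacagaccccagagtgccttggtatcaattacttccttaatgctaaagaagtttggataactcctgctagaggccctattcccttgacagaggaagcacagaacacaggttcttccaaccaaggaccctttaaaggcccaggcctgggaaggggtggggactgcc
Lamb2: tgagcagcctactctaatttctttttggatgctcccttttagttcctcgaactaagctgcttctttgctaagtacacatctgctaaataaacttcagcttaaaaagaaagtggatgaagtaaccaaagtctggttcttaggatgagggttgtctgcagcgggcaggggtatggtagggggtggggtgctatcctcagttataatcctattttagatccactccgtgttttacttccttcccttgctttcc
The windows are chr2:180225860-180226109 on the minus strand for Lama5, chr12:31265043-31265292 on the plus strand for Lamb1, chr10:27616943-27617192 on the minus strand for Lama2 and chr9:108479612-108479861 on the plus strand for Lamb2. Lama5 held 4 GC boxes and Lamb1 held 2, counted over both strands, while Lama2 and Lamb2 held 0. None of the 4 held TATAAA or its reverse complement TTTATA. Of 32851 promoter windows of this length 32.7% held the GC box and 12.4% the TATA letters. The GC content was 72.4% in Lama5, 62.0% in Lamb1, 47.2% in Lama2 and 43.6% in Lamb2, against a median of 52.4%. Of the genes shown, those that fell were thus found with and without the GC box, and a match describes the sequence only.

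The partners of laminin are described by lists of genes, each by its brightest tested probe, beside the 22.8% of all genes called lower and 35.3% called higher. Genes of these lists named beyond the 4 largest changes were chosen after their values were seen. Of 17 basement membrane partners 16 were tested: 13 fell, 1 rose and 2 did not pass. The median fold change was -0.71. Col4a2, a chain of type IV collagen, read 2.15, 2.08 and 2.09 after miR-29, against 3.79, 3.79 and 3.80 in the controls, 31.1% of control. The log2 fold change was -1.69 (SE 0.047, adjusted p = 2.12e-05), and the second Col4a2 probe gave -1.18. Sparc, a collagen-binding matrix protein, fell by 1.42 with either of its probes.

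Nid1, the nidogen that links laminin to type IV collagen, fell by 1.10 (SE 0.081, adjusted p = 0.00015), and its relative Nid2 by 0.94. Col15a1, a collagen of the outer basement membrane zone, gave dim signals and fell by 1.11. With normexp its fold change was -0.63 (adjusted p = 0.000102). The heparan sulphate proteoglycans fell by amounts near that of Lama2: Agrn, which binds laminin directly, changed by -0.76 and Hspg2, perlecan, by -0.67. Fbln2, a fibulin that binds laminin and nidogen, was the single member that rose, by 0.49 (adjusted p = 0.00521). With the slide as a block 11 members fell and 1 rose. In that fit 4710 of all 26432 tested probes (17.8%) were called lower and 7284 higher.

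Of 12 laminin receptors 11 were tested: 4 fell, 1 rose and 6 did not pass. The median was -0.11. Itga6, the integrin alpha 6 subunit, read -3.11, -3.18 and -2.84 after miR-29, against -0.73, -1.04 and -0.87 in the controls, 22.3% of control (fold change -2.17, SE 0.12, adjusted p = 6.65e-05). The Itga6 fold change was -1.45 with normexp (adjusted p = 3.61e-06). Dag1, which encodes dystroglycan, read -0.54, -0.57 and -0.58 against 1.05, 1.02 and 1.05, 32.9% of control (fold change -1.61, SE 0.044, adjusted p = 2.12e-05). The second Dag1 probe gave -1.84. Both changes were larger than that of any laminin probe. Itga3, the integrin alpha 3 subunit, fell by 0.74 and its partner Itgb1, the shared beta 1 subunit, by 0.71, with all 5 of their probes lower.

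Itgb4, the beta subunit that pairs with Itga6 in epithelia, had a fold change of 0.02 (adjusted p = 0.763), Itga7 of -0.07 (adjusted p = 0.358) and the tetraspanin Cd151 of -0.03 (adjusted p = 0.794). Rpsa, a ribosomal protein also described as a laminin receptor, rose by 0.54 (adjusted p = 0.00326). With spike-in scaling the counts were 9 lower and 1 higher, where 38.4% of all tested probes were called lower and 14.9% higher.

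Dystroglycan binds laminin through a sugar chain that a series of enzymes builds, and all 15 listed genes of that route were tested. The list moved both ways: 5 fell, 4 rose and 6 did not pass. The median was 0.03. Pomt2, a subunit of the enzyme that adds the first mannose, fell by 1.33 (SE 0.115, adjusted p = 0.000271), with -0.98 and -1.10 from the 2 other probes. Pomt1, the partner subunit of Pomt2, rose by 0.66 (SE 0.049, adjusted p = 0.000154). B4gat1, which primes the laminin-binding repeat, fell by 0.52. With spike-in scaling 7 fell and 2 rose, beside 38.4% of all tested probes called lower and 14.9% called higher at that scaling.

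Of 13 netrins and other proteins with laminin-type domains 10 were tested: 3 fell, 1 rose and 6 did not pass. The median was -0.12. Megf6 was well above background on all 3 control arrays but on 0 after miR-29. Its signal was lower in limma (adjusted p = 0.000718, and 0.003 without the filter on dim probes). It was 3.81-fold lower with each miR-29 array raised to at least the lowest signal called well above background there. Signals brighter than that lowest one can go uncalled, as for Lamc3, so 3.81 is no firm bound. Megf6 entered the test through the control group alone, and with normexp its fold change was -0.32 (adjusted p = 0.0464). Ntn4, a netrin that binds laminin gamma chains, fell by 0.64 (adjusted p = 0.0317), but did not pass when slide was a block (-0.36, adjusted p = 0.276), after normexp correction (-0.09, adjusted p = 0.503) or without the filter on dim probes (adjusted p = 0.0688). Nor did it pass without miR-29 replicate 2 (adjusted p = 0.051), miR-29 replicate 3 (adjusted p = 0.0533), control replicate 2 (adjusted p = 0.0902) or control replicate 3 (adjusted p = 0.0933). Ntn3 rose by 0.28 (adjusted p = 0.00681), and with spike-in scaling its fold change was 0.03 (adjusted p = 0.692); when slide was a block it was 0.23 and did not pass (adjusted p = 0.0506).

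Of 12 proteases that cut laminin 6 were tested: 4 fell, 1 rose and 1 did not pass. The median was -1.0. Mmp2, a gelatinase, read 0.57, 0.54 and 0.54 after miR-29, against 3.12, 3.20 and 3.21 in the controls, 16.1% of control (fold change -2.63, SE 0.049, adjusted p = 1.68e-05). Its membrane-bound activator Mmp14 fell by 1.06 and the stromelysin Mmp3 by 0.94. Plau, the urokinase, fell by 2.44 (adjusted p = 0.0179), but it did not pass once the slide was a block (-1.65, adjusted p = 0.171), without control replicate 2 (adjusted p = 0.055) and without control replicate 3 (adjusted p = 0.0578). The Plau fold change was -1.76 without miR-29 replicate 1, the lowest array, and -0.58 with normexp, and 2 of the 3 miR-29 arrays had it above background. Plau thus entered the test through the control group alone. Bmp1, which processes laminin chains, rose by 0.22 with its brightest probe and fell by 1.18 with a probe for a non-coding transcript of the gene, so it has no single direction; with spike-in scaling the brightest gave -0.03 (adjusted p = 0.673), and its rise did not pass when slide was a block (adjusted p = 0.195). 

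**Figure D5:**
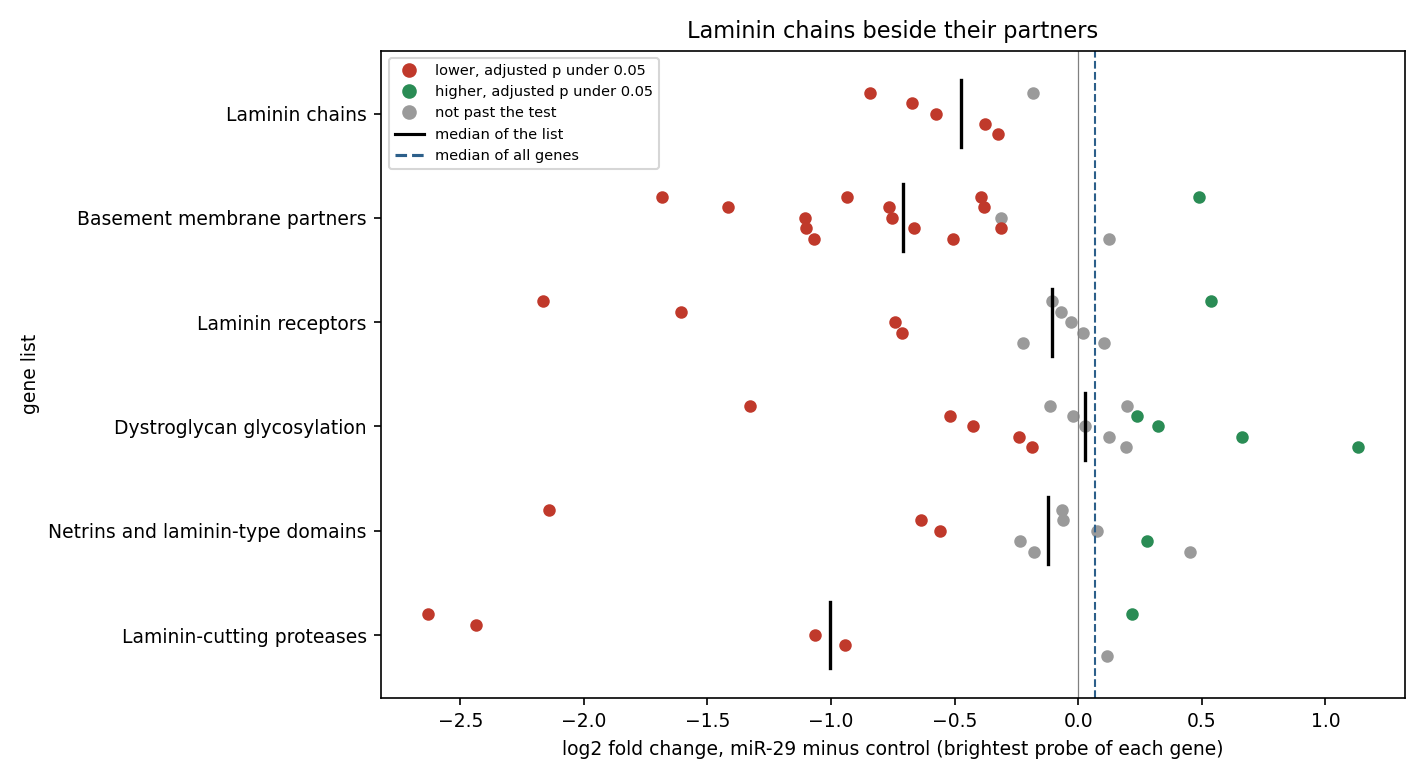
Each point is 1 gene, placed by the log2 fold change, miR-29 minus control, of its brightest tested probe; red points fell, green points rose and grey points did not pass, with the list median as a black bar and the median of all genes, 0.07, as a dashed line. The medians of the laminin chains, the basement membrane partners and the proteases lie at -0.48, -0.71 and -1.0, those of the other lists between -0.12 and 0.03.

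Markers of the cells a cortical culture could hold were measured on the same arrays, since laminins are also made by vascular, meningeal and epithelial cells. Over all genes and transcripts 22.8% were called lower and 35.3% higher, the shares to set beside the counts below. The summed level below is the linear signal relative to the 75th percentile, added over the tested markers. It is weighted to the brightest probes, such as Acta2 in the mural list, Dcn in the fibroblast list and Tmem119 in the microglial list. Of 10 astrocyte markers 9 were tested, 0 fell and 6 rose, with a sum of 81.9 to 91.5 after miR-29, and 60.7 to 63.9 in the controls; Gjb6 was above background on 0 arrays. The mural and smooth muscle list had 2 lower and 3 higher of 5 tested, with sums of 336 to 369 against 207 to 231, and the fibroblast and meningeal list 2 lower and 2 higher of 7, with 68.5 to 71.5 against 62.1 to 64.9. The endothelial list had 2 lower and 2 higher of 6, with 1.97 to 2.06 against 2.46 to 2.83, and the epithelial list 2 lower and 0 higher of 4, with 3.42 to 3.73 against 4.18 to 4.53. The microglial list had 2 lower and 1 higher of 3, with 3.13 to 3.38 against 4.18 to 4.72. Csf1r, 1 of the 2 lower, fell by 1.39 with its brightest probe, which did not pass when slide was a block (limma, adjusted p = 0.176). Its other probe rose by 0.37 (adjusted p = 0.0238), so Csf1r has no single direction. The oligodendrocyte list had 1 lower and 4 higher of 6, with 2.26 to 2.33 against 1.46 to 1.61, and the neuronal list 2 lower and 2 higher of 6, with 3.92 to 4.09 against 3.81 to 3.96. Slc17a7, counted lower among the neuronal markers, was above background on 3 control arrays but 1 miR-29 array. It entered the test through the control group alone and did not pass when slide was a block (limma, adjusted p = 0.287). Vwf, counted higher among the endothelial markers, was above background on 3 miR-29 arrays and 2 control arrays, so it entered through the miR-29 group alone. With spike-in scaling 0 astrocyte markers were lower and 3 higher, where 38.4% of all tested probes were called lower and 14.9% higher. In the same order the counts were then 2 lower and 3 higher for mural, 2 and 1 for fibroblast, 2 and 1 for endothelial, 2 and 0 for epithelial, 2 and 0 for microglial, 2 and 4 for oligodendrocyte and 2 and 2 for neuronal markers. Rgs5 and Kcnj8 of the mural list, Tek of the endothelial list, Mog of the oligodendrocyte list and Aif1, Cx3cr1, Trem2, Ptprc and C1qa of the microglial list were above background on 0 arrays. The laminin genes summed to 28.4 to 29.4 against 36.6 to 38.6, and the part of other cells in their change was not tested.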

How the data were processed

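Per the labels' protocols, total RNA was labelled with Cy3 and hybridised to 1 one-colour array per sample. Per the file headers, the authors extracted spot intensity with Agilent Feature Extraction 10.7.3.1 (10.7 in the submitters' processing notes), which removed the local background; the result is a linear processed signal. The table of values that the authors deposited for the series holds the same intensity times 1 factor per array, 2.627 to 3.427; it is linear and not centred, the origin of the factor is unknown, and its column medians were 149.3, 155.4 and 148.8 (miR-29) and 146.3, 164.8 and 162.2 (control). There were 0 columns of other samples.

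Signals under 1 were set to 1, and log2 values were taken relative to the 75th percentile of each array over non-control spots without an outlier flag. Repeated spots of a probe were averaged. Tested probes had to be well above background on each of the 3 arrays in 1 group or in both. The groups were compared in R 4.3.3 with limma 3.58.1 (lmFit, then eBayes; two-sided) over all tested probes, and the procedure was tested on simulated data. Probes were named by matching accessions to RefSeq (GRCm38.p6), used for names and printed sequences only, since the array design is on another build; 26933 probes matched 1 gene and 14241 matched none. The number of arrays limits the precision, and levels of different probes are not compared.

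The members and lists were chosen with earlier results of these data known. All laminin probes are named, and up to 4 genes past the threshold from each partner list, by the size of the change of the brightest tested probe; some genes that this rule takes are not reported here, and a rule to name the genes most like Lamc1 could not be applied. The files hold no mean signal, so normexp (offset 50) used median spot and background signals. The other alternatives were median, quantile and spike-in scaling (6 of 10 spike-in types detected, or all), the deposited table, other filters, another variance model, a test beyond 1.2-fold, slide and replicate blocks, the mean of the probes of a gene, and leaving out each array.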

Additional observations from a re-analysis of the deposited data

How the results depend on the processing

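The count of 7 lower laminin probes was 7 or 8 when each array was left out in turn, and 4 in the test for a change beyond 1.2-fold; no alternative gave a laminin probe called higher. The 5 partner lists held 16, 11, 15, 10 and 6 tested genes. Together they had 29 genes lower (26 to 32 leaving out 1 array) and 8 higher (5 to 10 leaving out 1 array). Over all genes and transcripts 22.8% were called lower and 35.3% higher. The count of higher genes was 4 with either spike-in scaling, 5 without a filter on dim probes and 3 in the test beyond 1.2-fold. Without that filter 8422 of 41174 probes were called higher, and the counts over all probes for the other settings are given below. The Lama3 probe A_52_P141739 turned to 0.233 both with the slide as a block and on slide 1 arrays only. The change of Lama2 relative to Lama4 was -0.233 with normexp and -0.411 on slide 1 (-0.383 to -0.318 leaving out 1 array), and that of Lamb1 relative to Lamb2 was 0.018 on slide 1 (-0.301 to -0.071 leaving out 1 array). The comparisons within arrays were repeated in this way only after the data were seen, and the cause of these changes was not tested. Replicate numbers did not clearly pair the samples: same-numbered arrays deviated together with correlations of 0.143, 0.099 and 0.271, although each array correlated best with its own number. With the replicate block the laminin count stayed at 7 lower and 0 higher, and over all probes 6092 were lower and 9423 higher, against 5992 and 9336 without it; among the genes named, Ntn4 lost its call (adjusted p = 0.0578). Over all tested probes the test beyond 1.2-fold called 2890 lower and 3908 higher, and spike-in scaling 10162 lower and 3948 higher (8946 and 4337 with all spike-ins). Dim signals limit Lama3, Lamb3 and Lamc3.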
